A study of Mus musculus with 24 samples.

Results

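The 7 genes described here, Lama1, Lamb1, Lamc1, Col4a1, Col4a2, Sparc and Nid1, encode secreted proteins of the basement membrane that early endoderm lays down. They were chosen by their measured log2 fold changes in the deletion lines and taken as a list of symbols, so each change below is a description with no test of its own. All 7 were found among the 24594 genes counted, and all 7 were among the 15682 genes that passed a filter on low counts.

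Mouse embryonic stem cells (mESCs) of the 129S6/SvEvTac background were untreated and grown in serum with leukemia inhibitory factor on gelatin, and RNA was sequenced in 24 libraries of 5 batches, lettered A to E in the sample titles. Batch A holds 2 wild-type (WT) libraries, 2 of Rsf1Δ and 2 of WstfΔ; batch B holds 2 WT and 2 Tip5Δ libraries. Batch C holds 2 WT and 2 BptfΔ libraries, batch D holds 3 WT libraries and 3 labelled Cecr2Δ, and batch E holds 2 WT and 2 Acf1Δ libraries. Each deletion, made with CRISPR–Cas9, removes 1 accessory subunit of the ISWI chromatin remodelers, which slide nucleosomes with an SNF2H or SNF2L ATPase: RSF1 of RSF, WSTF (gene Baz1b) of WICH, TIP5 (Baz2a) of NoRC, BPTF of NURF, CECR2 of CERF and ACF1 (Baz1a) of ACF and CHRAC. Each genotype is 1 clone, Rsf1Δ and WstfΔ are set against the same WT libraries, and a difference between a line and WT cannot be told apart from a difference between clones.

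Library totals ran from 13.4 to 36.7 M (mega) counts, with a median of 25.0 M, and the mESC markers Pou5f1, Sox2, Nanog, Esrrb, Zfp42 and Klf4 were at 114 CPM (normalized counts per M counts of the library) or more in every library. The mRNA of the targeted gene was lower than WT past both thresholds used here (a log2 fold change beyond 1 in size and an adjusted p under 0.01) for Rsf1 (log2 fold change -2.26), Baz1b in WstfΔ (-2.40), Bptf (-1.97) and Baz1a in Acf1Δ (-1.72), by edgeR's quasi-likelihood test with p adjusted by the Benjamini-Hochberg method. Baz2a in Tip5Δ stood at -0.26 (adjusted p = 0.0533, edgeR's quasi-likelihood test), and Cecr2 was higher in the Cecr2Δ-labelled libraries than in their WT, by 0.37 (adjusted p = 0.000154, edgeR's quasi-likelihood test). A deletion can leave the mRNA of its gene in place, and the study's methods name western blots and DNA sequencing as checks of every clone, so the mRNA of Baz2a and Cecr2 does not check these labels either way. The 4 libraries of batch C, BptfΔ and its WT alike, held the RNase P RNA Rpph1 at 3288 to 4824 CPM, against at most 3.39 CPM in the other 20 libraries.

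A basement membrane is a thin sheet of secreted proteins under an epithelium. Laminin is a trimer of an alpha, a beta and a gamma chain, and the trimer built from the products of Lama1, Lamb1 and Lamc1 is the main laminin of the early embryo. Collagen IV forms the covalent network of the sheet from alpha 1 and alpha 2 chains (Col4a1 and Col4a2), nidogen (Nid1) links laminin to that network, and SPARC is a calcium-binding glycoprotein that binds collagen IV. Primitive endoderm and its parietal derivative are known for making large amounts of these proteins, and mESC cultures in serum are known to hold some cells that express endoderm genes.

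Col4a1 (Entrez gene 12826, chr8:11198423-11312889, minus strand) and Col4a2 (12827, chr8:11312805-11449287, plus strand) start head to head in mm10, and their RefSeq genes overlap by 85 bases. How reads in such an overlap were assigned, and whether strand was used, is not given in the sources used here. The annotated transcripts share 22 bases at their first exons, which are shown because both genes changed together. Capitals mark GGGCGG, the core of a GC box, and the bases are from RefSeq, GRCm38.p6, chr8:11312805-11312826, plus strand:
Col4a1 and Col4a2 shared start: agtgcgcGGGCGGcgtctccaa
The other members are single genes on separate chromosomes: Lama1 (16772) at chr17:67697127-67822645, Lamb1 (16777) at chr12:31265146-31329644, Lamc1 (226519) at chr1:153218922-153332786, Sparc (20692) at chr11:55394159-55420080 and Nid1 (18073) at chr13:13437602-13512275. For Lamb1, which had the lowest log2 fold change of all members in any line, the 53 bases directly before the first exon that no annotated transcript covers are shown, with a CCAAT box in capitals (RefSeq, GRCm38.p6, chr12:31265093-31265145, plus strand):
Lamb1: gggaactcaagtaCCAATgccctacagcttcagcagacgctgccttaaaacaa
RefSeq promoter windows, 250 bases before to 50 after the start, were at hand for 5 of the 7 genes and not for Lama1 and Lamc1. CCAAT, on either strand, was found in the windows of Col4a1, Col4a2, Lamb1 and Nid1 and in 37.4% of all 32851 windows. GGGCGG was found 1 time in Col4a1, 3 times in Col4a2, 2 times in Lamb1 and 1 time in Nid1, and in 35.7% of all windows; the Sparc window held neither. Words of 6 bases that GATA factors can bind, namely AGATAA or AGATAG and likewise TGATAA or TGATAG, were in none of the 5 windows and in 29.8% of all windows, and TATAAA was in none of the 5 and in 13.6% of all. A match of letters is not a binding site, and its absence from a window says nothing about the factor.

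All 7 mRNAs were abundant in WT mESCs. Levels can be compared between genes only per length, so each CPM was divided by the gene's width in kilobases. Over the 11 WT libraries, Sparc (median 284 CPM per kilobase, range 146 to 389) and Lamc1 (217, 145 to 328) held the first 2 ranks in every library, in either order. Col4a1 (140, 55.6 to 272) held rank 3 in each of them. Lama1 (97.0, 37.7 to 163), Col4a2 (74.7, 26.8 to 121), Lamb1 (66.0, 30.0 to 122) and Nid1 (44.2, 28.1 to 51.1) shared ranks 4 to 7. Lama1 was above Lamb1 in all 11 WT libraries, while the order of every other pair of these 4 genes changed between libraries. Col4a2 and Lamb1 overlapped between replicates in batches A and B and so do not differ beyond their spread there. Batches differed more than replicates. WT means differed between the highest and the lowest batch 4.5-fold for Col4a1, 4.20-fold for Col4a2, 3.86-fold for Lama1, 3.74-fold for Lamb1, 2.58-fold for Sparc, 2.11-fold for Lamc1 and 1.78-fold for Nid1, whereas the SD between WT replicates of a batch was 0.041 to 0.16 on the log2 scale. The lowest WT batch was D for the 3 laminin chains and both collagens, and C for Sparc and Nid1, so each line is read against the WT of its own batch.

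Collagen IV and the alpha and beta laminin chains were lower in 5 of the 6 lines, and Acf1Δ was the exception. Lama1, Lamb1, Col4a1 and Col4a2 fell past both thresholds in Rsf1Δ, WstfΔ, Tip5Δ, BptfΔ and the Cecr2Δ-labelled libraries, by log2 fold changes from -1.58 to -3.13. Of all genes tested, 115 (0.733%) fell in each of these 5 lines. Sparc fell in 4 of them, Lamc1 in Tip5Δ alone, and Nid1 in none. No member rose in any line, and 0.65% of all genes rose in Rsf1Δ, 3.87% in WstfΔ, 0.0829% in Tip5Δ, 5.25% in BptfΔ, 0.784% in the Cecr2Δ-labelled libraries and 1.14% in Acf1Δ. In libraries of mixed cells, fewer cells that make an mRNA and less of it per cell cannot be told apart.

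By line, 5 of the 7 genes fell in Rsf1Δ, where 5.26% of all genes tested fell, and 5 of 7 fell in WstfΔ, where 6.57% did. In Tip5Δ 6 of 7 fell, with 2.63% of all genes, and in BptfΔ 4 of 7, with 8.59%. In the Cecr2Δ-labelled libraries 5 of 7 fell, with 2.33% of all genes, and in Acf1Δ 0 of 7, with 3.32%. Because the list was drawn up from these same changes, nothing is read from these shares. The median log2 fold change of the 7 genes was -1.58 in Rsf1Δ, -1.87 in WstfΔ, -2.11 in Tip5Δ, -2.59 in BptfΔ, -1.67 in the Cecr2Δ-labelled libraries and -0.01 in Acf1Δ, and the median of all genes tested lay between -0.026 and 0.015. Just inside the fold threshold were Sparc in the Cecr2Δ-labelled libraries (-1.06) and Lamc1 in Tip5Δ (-1.14), and just outside were Lamc1 in Rsf1Δ (-0.97) and WstfΔ (-0.93). With the adjusted p alone and no fold threshold, 7 members passed in Rsf1Δ, 6 in each of WstfΔ, Tip5Δ and BptfΔ, 7 in the Cecr2Δ-labelled libraries and 0 in Acf1Δ, in either direction, against 20.6%, 34.7%, 9.07%, 41.6%, 18.4% and 31.8% of all genes.

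**Figure D1:**
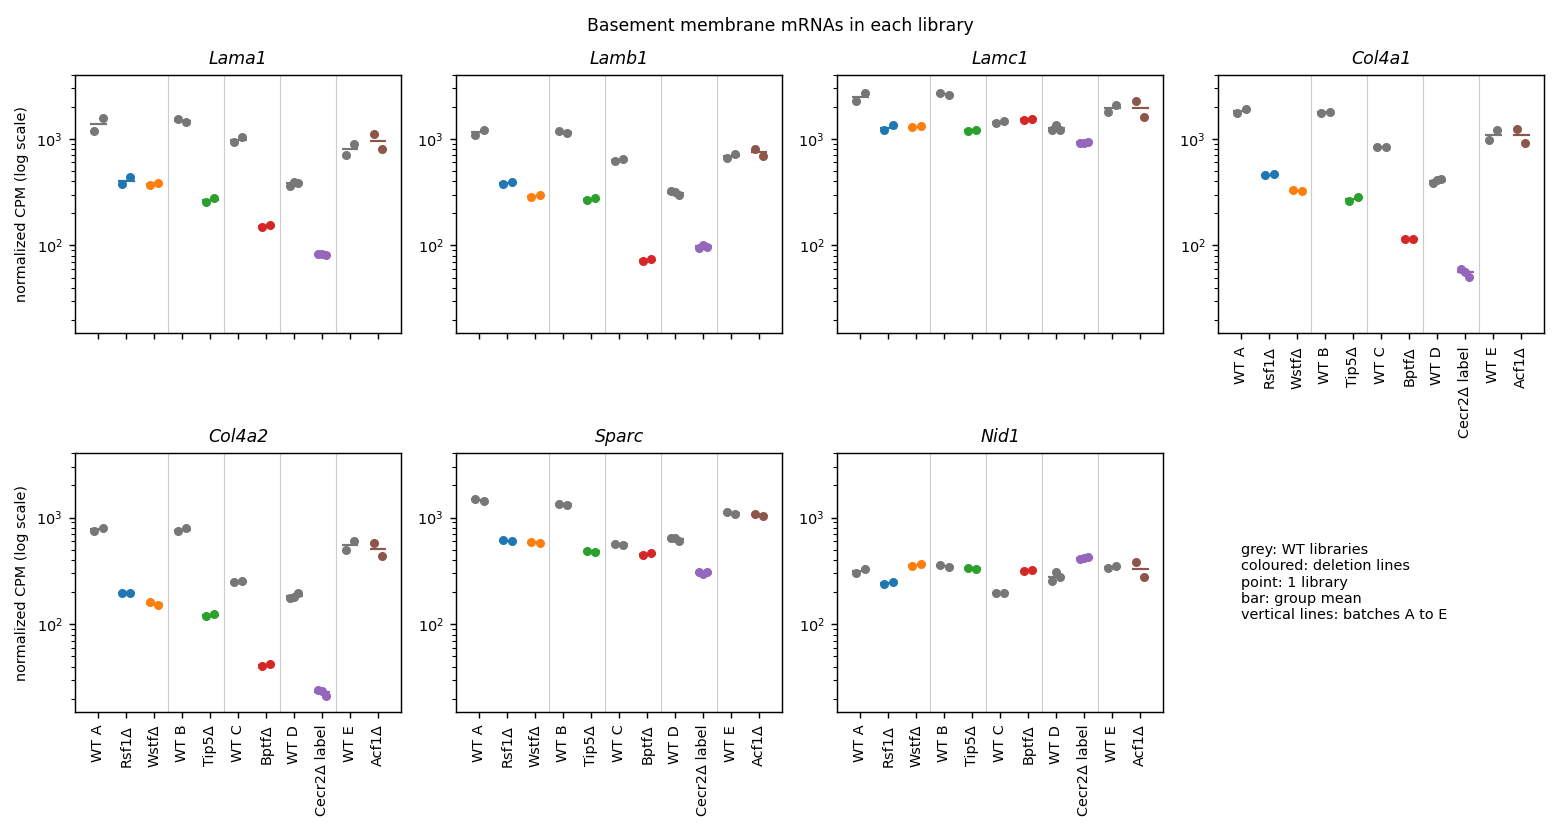
Normalized CPM (log axis) of each of the 7 genes in each of the 24 libraries, as 1 point per library with a bar at the group mean, WT in grey, lines in colour, and vertical lines between batches A to E. Lama1, Lamb1, Col4a1 and Col4a2 lie well below the WT of their batch in every line but Acf1Δ, with Col4a1 down to 50.9 CPM, while Nid1 stays between 195 and 423 CPM in all libraries.

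Col4a1 encodes the collagen IV chain that is present in 2 copies in each trimer. Its mRNA ranged more widely than that of any laminin chain among the members, from 50.9 to 1886 CPM, or 37.0-fold, over the 24 libraries. In batch A it was at 1745 and 1886 CPM in WT, at 458 and 465 in Rsf1Δ and at 329 and 324 in WstfΔ, 3.94-fold (log2 fold change -1.98, SE 0.099) and 5.56-fold (log2 fold change -2.48, SE 0.1) lower. In batch B it was at 1740 and 1800 CPM in WT and at 263 and 287 in Tip5Δ, 6.44-fold lower (log2 fold change -2.69, SE 0.1). All 6 deletion libraries of these batches lay far below all 4 WT libraries. In batch C the WT libraries were at 845 and 843 CPM and the BptfΔ libraries at 115 and 115, 7.34-fold lower (log2 fold change -2.88, SE 0.11). In batch D the WT libraries were already low, at 386, 409 and 416 CPM, and those labelled Cecr2Δ were at 59.8, 56.8 and 50.9, 7.24-fold lower (log2 fold change -2.86, SE 0.086). Batch D thus held less Col4a1 than batch C in the WT and in the deletion line alike, with almost the same fold between them.

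Col4a2, the single alpha 2 chain of the same trimer, followed a like course. It was at 750.2 and 803 CPM in the WT of batch A, at 195 and 198 in Rsf1Δ (log2 fold change -1.98, SE 0.094) and at 159.9 and 153 in WstfΔ (log2 fold change -2.31, SE 0.096). In batch B it was at 749 and 791 CPM in WT and at 119.5 and 126 in Tip5Δ (log2 fold change -2.65, SE 0.097). The replicates of each of these groups differed by little next to the distance between groups. In batch C it was at 246 and 253 CPM in WT and at 40.8 and 42.1 in BptfΔ (log2 fold change -2.59, SE 0.1). In batch D it was at 178, 182 and 195 CPM in WT and at 24.4, 23.8 and 21.2 in the Cecr2Δ-labelled libraries, 8-fold lower (log2 fold change -3.00, SE 0.085). The 3 Cecr2Δ-labelled libraries held the lowest Col4a2 and Col4a1 of the series.

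Lama1 encodes the alpha 1 laminin chain, which carries the binding sites for cell-surface receptors. Its mRNA was at 1192 and 1575 CPM in the WT of batch A, at 376 and 435 in Rsf1Δ (log2 fold change -1.77, SE 0.12) and at 369 and 388 in WstfΔ (log2 fold change -1.87, SE 0.12). The WT libraries of batch A were farther apart, in fold, for Lama1 than for the other members, but neither came near the deletion lines. In batch B the WT libraries were at 1520 and 1422 CPM and Tip5Δ at 258 and 276 (log2 fold change -2.46, SE 0.13). In batch C the WT libraries were at 939 and 1029 CPM and BptfΔ at 150.4 and 156 (log2 fold change -2.68, SE 0.13). In batch D the WT libraries were at 365, 394 and 385 CPM and those labelled Cecr2Δ at 83.1, 83.8 and 81.6 (log2 fold change -2.20, SE 0.1). No deletion library of these batches overlapped with its WT.

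Lamb1, the beta 1 laminin chain, showed the lowest log2 fold change of any member, in BptfΔ: 622 and 645 CPM in WT and 70.9 and 74.3 in the deletion line, 8.73-fold lower (log2 fold change -3.13, SE 0.076). In batch A it was at 1086 and 1205 CPM in WT, at 377 and 392 in Rsf1Δ (log2 fold change -1.58, SE 0.07) and at 288 and 296 in WstfΔ (log2 fold change -1.97, SE 0.071). Lamb1 was thus lower in WstfΔ than in Rsf1Δ in both replicates, against the same WT libraries. In batch B it was at 1189 and 1142 CPM in WT and at 265 and 277 in Tip5Δ (log2 fold change -2.11, SE 0.071). In batch D it was at 323, 315 and 297 CPM in WT and at 95.7, 101 and 97.1 in the Cecr2Δ-labelled libraries (log2 fold change -1.67, SE 0.058). The groups of every batch from A to D were apart.

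Lamc1, the gamma 1 chain that most laminin trimers share, changed least among the laminin chains of the members. It was at 2275 and 2677 CPM in the WT of batch A, at 1199 and 1333 in Rsf1Δ (log2 fold change -0.97, SE 0.099) and at 1293 and 1311 in WstfΔ (log2 fold change -0.93, SE 0.1). In batch B it was at 2710 and 2583 CPM in WT and at 1187 and 1207 in Tip5Δ (log2 fold change -1.14, SE 0.1), the only line where it passed both thresholds. These 3 lines had Lamc1 at 51.1%, 52.6% and 45.2% of WT. Lamc1 also passed in Rsf1Δ without the first WT library of batch A (-1.08) or without the second Rsf1Δ library (-1.04), and in WstfΔ without that WT library (-1.04). In batch C it was at 1407 and 1477 CPM in WT and at 1513 and 1527 in BptfΔ (log2 fold change 0.08, SE 0.099), a difference within its SE although both BptfΔ libraries were above both WT libraries. In batch D it was at 1209, 1352 and 1203 CPM in WT and at 915, 920.4 and 938 in the Cecr2Δ-labelled libraries (log2 fold change -0.44, SE 0.081). BptfΔ therefore held Lamc1 at 105% of WT while Lamb1 was at 11.5% of WT in the same libraries.

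Sparc fell in the lines of batches A and B and in the Cecr2Δ-labelled libraries. It was at 1475 and 1424 CPM in the WT of batch A, at 609.9 and 596 in Rsf1Δ (log2 fold change -1.27, SE 0.052) and at 591 and 578 in WstfΔ (log2 fold change -1.31, SE 0.052), so that Rsf1Δ and WstfΔ differed by little. In batch B it was at 1348 and 1301 CPM in WT and at 488 and 479 in Tip5Δ (log2 fold change -1.45, SE 0.052), and in batch D at 645, 646 and 609 in WT and 309.6, 296 and 308 in the Cecr2Δ-labelled libraries (log2 fold change -1.06, SE 0.042). In batch C the WT libraries themselves were low, at 567 and 555 CPM, and BptfΔ was at 448 and 465 (log2 fold change -0.30, SE 0.052), short of the fold threshold with no overlap between groups.

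Nid1, the linker between laminin and collagen IV, did not follow the rest. It was at 304 and 328 CPM in the WT of batch A, at 237 and 249.7 in Rsf1Δ (log2 fold change -0.38, SE 0.091) and at 354 and 364 in WstfΔ (log2 fold change 0.18, SE 0.091), on opposite sides of the same WT libraries. In batch B it was at 355 and 344 CPM in WT and at 337 and 333 in Tip5Δ (log2 fold change -0.06, SE 0.09). In batch C it was at 195 and 197 CPM in WT and at 314 and 320.0 in BptfΔ (log2 fold change 0.69, SE 0.093), and in batch D at 255, 307 and 274 in WT and 412, 416 and 423 in the Cecr2Δ-labelled libraries (log2 fold change 0.58, SE 0.074). In both of these lines every deletion library was above every WT library of the batch, at 162% and 150% of WT. The Cecr2Δ-labelled libraries thus held the highest Nid1 of the series and the lowest Col4a1, Col4a2, Lama1, Lamc1 and Sparc.

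**Figure D2:**
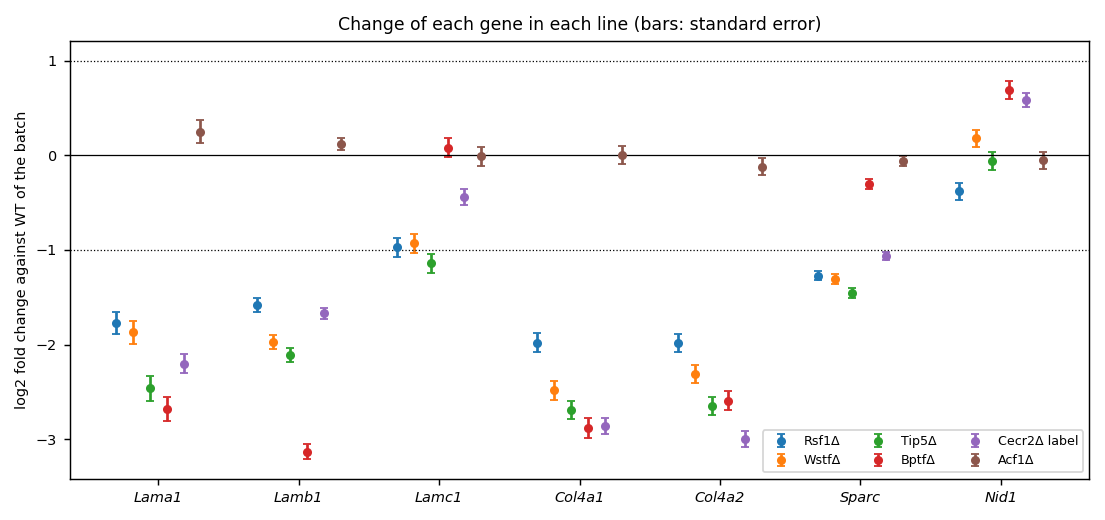
Log2 fold change of each of the 7 genes in each deletion line against the WT of its batch, with bars for 1 SE and dotted lines at the fold threshold of 1 in either direction. Lama1, Lamb1, Col4a1 and Col4a2 lie between -1.58 and -3.13 in 5 lines, Lamc1 lies between -1.14 and 0.08 and Nid1 between -0.38 and 0.69 over the 6 lines, and Acf1Δ lies between -0.12 and 0.25 for all 7 genes.

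In Acf1Δ the libraries overlapped with those of WT for all 7 genes. Col4a1 was at 971 and 1196 CPM in the WT of batch E and at 1244 and 919.9 in Acf1Δ (log2 fold change 0.00, SE 0.095). Lama1 was at 704 and 898 CPM in WT and at 1112 and 794 in Acf1Δ (log2 fold change 0.25, SE 0.12), and Lamb1 was at 654 and 718 CPM in WT and at 807 and 685 in Acf1Δ (log2 fold change 0.12, SE 0.068). For these 3 genes the 2 Acf1Δ libraries differed from each other by more than the group means did. Lamc1 was at 1797 and 2087 CPM in WT and at 2248 and 1610 in Acf1Δ. For Col4a2 the WT libraries were at 495 and 603 CPM and those of Acf1Δ at 575 and 438, and for Nid1 the WT libraries were at 335 and 355 CPM and those of Acf1Δ at 385 and 279.9. Sparc had the narrowest spread, at 1126 and 1077 CPM in WT and 1081 and 1033 in Acf1Δ (log2 fold change -0.06, SE 0.051), and here too the groups overlapped. The SEs of the 7 genes in this line were 0.051 to 0.12 on the log2 scale.

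Every library of the line lay below every WT library of its batch for 7 genes in Rsf1Δ, 6 in WstfΔ, 7 in Tip5Δ, 5 in BptfΔ, 6 in the Cecr2Δ-labelled libraries and 0 in Acf1Δ. For all genes tested the same was so for 34.4%, 40.8%, 32.4%, 38.7%, 18.4% and 33.3%. Set against all 11 WT libraries in place of those of the batch, the count of members with every line library below every WT library was 0 in Rsf1Δ, 3 in WstfΔ, 5 in Tip5Δ, 5 in BptfΔ, 6 in the Cecr2Δ-labelled libraries and 0 in Acf1Δ, and for all genes tested the shares were 5.75%, 11.6%, 7.52%, 20.6%, 6.29% and 6.21%. Both collagens, Lama1 and Lamb1 in Rsf1Δ were within or above the range of the WT of batch D: Col4a1 was at 458 and 465 CPM in Rsf1Δ and at 386, 409 and 416 in the WT of batch D, and Lama1 was at 376 and 435 in Rsf1Δ and at 365, 394 and 385 in that WT. In a model without the batch, none of the 7 genes passed the thresholds in Rsf1Δ, WstfΔ and Tip5Δ, where Col4a1 still stood at log2 fold changes of -1.27, -1.77 and -2.02. In that model 4 members passed in BptfΔ and 6 in the Cecr2Δ-labelled libraries, with Col4a1 at -3.27 and -4.32.

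The chains that join in one protein were also compared with each other within each library, as the log2 ratio of their levels per kilobase. For Col4a1 over Col4a2 this ratio had a median of 1.14 and stayed between 0.90 and 1.71 in all 24 libraries, so both mRNAs were lower to a like extent. It was highest in the WT of batch C, at 1.71 and 1.67, with BptfΔ at 1.43 and 1.38, and lowest in the WT of batch E, at 0.90 and 0.92. For Lama1 over Lamb1 the ratio lay between -0.23 and 1.12, with both BptfΔ libraries at the top, at 1.12 and 1.11, and the 3 labelled Cecr2Δ at the bottom, from -0.23 to -0.17. The gamma chain departed from this. Lamc1 over Lamb1 was between 1.33 and 2.36 in the 11 WT libraries, at a mean of 1.98 in Rsf1Δ, 2.42 in WstfΔ and 2.41 in Tip5Δ, at 3.50 in the Cecr2Δ-labelled libraries and at 4.65 in BptfΔ. In BptfΔ this ratio reached 4.68, or 25.6-fold more Lamc1 than Lamb1 per kilobase, against 1.44 and 1.46 in the WT of batch C. Lamc1 over Lama1 was 0.75 to 2.01 in WT, 3.54 in BptfΔ and 3.71 in the Cecr2Δ-labelled libraries, and Sparc over Col4a1 stood at 2.86 and 3.32 in these lines against 0.27 to 1.61 in WT. Nid1 over Lamc1 was -2.78 to -1.88 in WT, -1.61 in WstfΔ, -1.59 in Tip5Δ and -0.90 in the Cecr2Δ-labelled libraries. In Acf1Δ each of the 6 ratios was within its WT range.

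**Figure D3:**
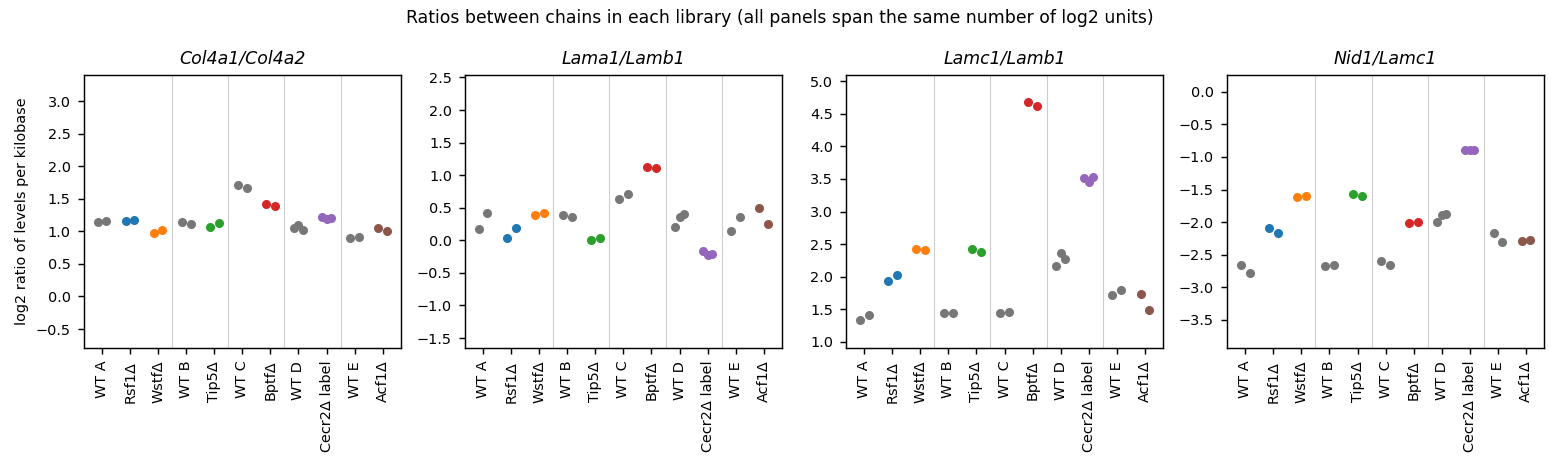
Log2 ratio of levels per kilobase in each of the 24 libraries for 4 pairs of genes, 1 point per library, WT in grey and lines in colour, all panels spanning the same number of log2 units. Col4a1/Col4a2 stays between 0.90 and 1.71, whereas Lamc1/Lamb1 reaches 4.68 in BptfΔ and 3.53 in the Cecr2Δ-labelled libraries against at most 2.36 in WT.

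The change was not shared by all components of basement membranes. The counts of this list and of those below are to be read beside the shares of all genes that fell. These were 5.26% in Rsf1Δ, 6.57% in WstfΔ, 2.63% in Tip5Δ, 8.59% in BptfΔ, 2.33% in the Cecr2Δ-labelled libraries and 3.32% in Acf1Δ. A count of 1 in a short list is not read as a result. Of 7 tested chains in a list of 8 other laminin chains, 3 fell in Rsf1Δ, 1 in WstfΔ, 0 in Tip5Δ, 1 in BptfΔ and 0 in both the Cecr2Δ-labelled libraries and Acf1Δ, with list medians from -1.07 in Rsf1Δ to 0.20 in BptfΔ. Lama4, an alpha chain of vascular laminins, fell in Rsf1Δ from 3.30 ± 0.149 to 1.01 ± 0.215 CPM (SD, n = 2 libraries each; log2 fold change -1.71, SE 0.26, adjusted p = 7.09e-06, edgeR's quasi-likelihood test), and Lamb3 fell there from 3.87 ± 0.0631 to 1.83 ± 0.285 CPM (log2 fold change -1.07). Lama3 fell in Rsf1Δ, WstfΔ and BptfΔ by log2 fold changes of -1.37, -1.60 and -1.25 at levels of at most 5.89 CPM. All 3 mRNAs were rare beside the members. Lama5, the abundant alpha chain of later basement membranes, was at 194 to 596 CPM and passed the thresholds in no line, with log2 fold changes from -0.19 to 0.55.

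Col4a5 and Col4a6 encode chains of another collagen IV network, and of the 4 genes of this kind 3 were tested, none above 2.57 CPM. Col4a5 fell in Rsf1Δ (-1.84), WstfΔ (-1.53), BptfΔ (-1.88) and Acf1Δ (-2.26), and Col4a6 was called lower in BptfΔ, with 0 counts in both of its libraries against 0.248 ± 0.0205 CPM in WT. The Col4a6 call rests on few reads, since the gene had at most 14 counts in any library and 0 in 5 libraries. Among 14 linkers and proteoglycans, 13 were tested, of which 4 fell in Rsf1Δ, 5 in WstfΔ, 3 in Tip5Δ, 5 in BptfΔ, 2 in the Cecr2Δ-labelled libraries and 2 in Acf1Δ, and 0 rose, with list medians from -0.76 in Rsf1Δ to -0.27 in the Cecr2Δ-labelled libraries. Tinagl1, a secreted matrix glycoprotein, fell in the same 5 lines as the collagens, for example from 17.9 ± 1.36 to 1.41 ± 0.318 CPM in the Cecr2Δ-labelled libraries (SD, n = 3 libraries each; log2 fold change -3.68, SE 0.12, adjusted p = 7.77e-19, edgeR's quasi-likelihood test). Ntn4, a netrin that binds laminin, also fell in these 5 lines, from -3.69 in WstfΔ to -1.76 in BptfΔ. Smoc1, a relative of SPARC, fell in Rsf1Δ (-1.73), WstfΔ (-1.59), BptfΔ (-4.63) and Acf1Δ (-1.26), and Fbln2 fell in WstfΔ (-1.50) and BptfΔ (-2.03).

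The linkers that were abundant did not pass the thresholds in any line. These are Nid2, the second nidogen, at 396 to 662 CPM, Hspg2 (perlecan) at 265 to 620 CPM, Agrn (agrin) at 210.0 to 323 CPM, Col18a1 at 455 to 697 CPM and Fn1 (fibronectin) at 479 to 1260 CPM, and they are named here after their values were seen. Their log2 fold changes lay between -0.66 and 0.52. Of 12 matrix receptors 11 were tested, and Ddr1, a collagen receptor, fell in Rsf1Δ (-1.10) and WstfΔ (-1.32), and Itgav, an integrin alpha chain, in Rsf1Δ (-1.26). No receptor passed the thresholds in the other 4 lines, and the list medians lay between -0.33 and 0.14. The laminin receptors Itgb1 and Dag1, named here after their values were seen, passed in no line.

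Collagen chains need enzymes and chaperones that fold, modify and cross-link them, and of 17 such genes, all tested, 6 fell in Rsf1Δ, 5 in WstfΔ, 5 in Tip5Δ, 4 in BptfΔ, 3 in the Cecr2Δ-labelled libraries and 1 in Acf1Δ, and 0 rose, with list medians from -0.60 in WstfΔ to 0.06 in Acf1Δ. P4ha2, a catalytic subunit of prolyl hydroxylase, fell in all 5 lines in which the collagens fell, from 58.7 ± 4.01 to 8.70 ± 0.530 CPM in BptfΔ (SD, n = 2 libraries each; log2 fold change -2.75, SE 0.082, adjusted p = 5.52e-20, edgeR's quasi-likelihood test), with -1.58, -1.77, -2.11 and -1.63 in Rsf1Δ, WstfΔ, Tip5Δ and the Cecr2Δ-labelled libraries. P4ha1, its paralog, fell in 4 of them, with -1.94 in Tip5Δ, and was at -0.94 in the Cecr2Δ-labelled libraries. Loxl2, a lysyl oxidase that cross-links collagen IV, fell in all 5, between -1.91 and -3.61, and Lox, at no more than 2.07 CPM in any library, fell in Rsf1Δ, WstfΔ and Acf1Δ. The general foldases P4hb and Ppib, named here after their values were seen, passed the thresholds in no line.

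**Figure D4:**
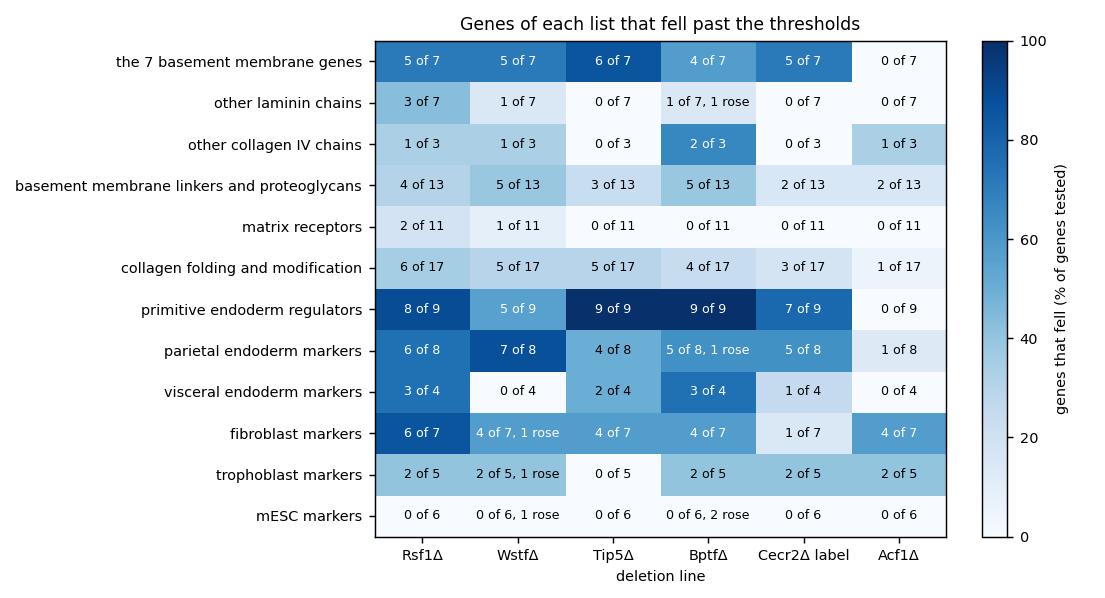
Number of genes of each list that fell past the thresholds in each deletion line, out of the genes tested, with any that rose given in words, and shading for the percentage that fell. Of the members 4 to 6 of 7 fell in each of 5 lines, and of the primitive endoderm regulators 5 to 9 of 9, while Acf1Δ has 0 of 7 and 0 of 9 in these rows. Of the fibroblast markers 4 of 7 fell in Acf1Δ.

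Markers of primitive endoderm moved in the same lines as the members. Of 9 regulators, all tested and none at 0 counts in any library, 8 fell in Rsf1Δ, 5 in WstfΔ, 9 in Tip5Δ, 9 in BptfΔ, 7 in the Cecr2Δ-labelled libraries and 0 in Acf1Δ, with median log2 fold changes in the same order of -1.32, -1.49, -2.30, -3.77, -1.81 and 0.23. Gata4, a transcription factor of endoderm, fell from 108 ± 2.37 to 22.6 ± 1.84 CPM in Tip5Δ (SD, n = 2 libraries each; log2 fold change -2.26, SE 0.12) and from 37.8 ± 0.730 to 2.77 ± 0.236 CPM in BptfΔ (log2 fold change -3.77, SE 0.18). Gata6, which acts upstream of it in primitive endoderm, changed by -1.18 in Rsf1Δ, -1.49 in WstfΔ, -2.30 in Tip5Δ, -3.89 in BptfΔ and -2.39 in the Cecr2Δ-labelled libraries. Sox17, a further endoderm factor, and Dab2, an endocytic adaptor of endoderm, were at 0.207 ± 0.130 and 1.0 ± 0.0251 CPM in BptfΔ, against 11.4 ± 1.48 and 41.9 ± 0.909 CPM in its WT. In Acf1Δ these 4 genes stood at 0.52, 0.25, 0.72 and -0.32, none past the fold threshold.

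The summed level of the 9 regulators was 343 to 350.0 CPM in the WT of batch A, 144 to 153 in Rsf1Δ and 145 to 151 in WstfΔ. It was 346 to 365 CPM in the WT of batch B and 75.6 to 83.0 in Tip5Δ, 150 to 158 in the WT of batch C and 14.3 to 15.3 in BptfΔ. In batch D it was 105 to 123 CPM in WT and 31.1 to 36.1 in the Cecr2Δ-labelled libraries, and in batch E 254 to 261 in WT and 279 to 319 in Acf1Δ. Over the same libraries the summed level of the 7 members was 8826 to 9898 CPM in the WT of batch A and 9384 to 9612 in that of batch B, and 4821 to 4999, 3360 to 3605 and 6082 to 6933 CPM in the WT of batches C, D and E. The WT of batches A and B thus held the most of both sums. The members summed to 3452 to 3668 CPM in Rsf1Δ, 3383 to 3414 in WstfΔ, 2917 to 2983 in Tip5Δ, 2653 to 2700 in BptfΔ, 1897 to 1920 in the Cecr2Δ-labelled libraries and 5759 to 7452 in Acf1Δ. The batches whose WT held less of the regulators held less of the members too, and the part of endoderm cell number in either difference was not tested. BptfΔ had the lowest regulators, and the Cecr2Δ-labelled libraries the lowest members.

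**Figure D5:**
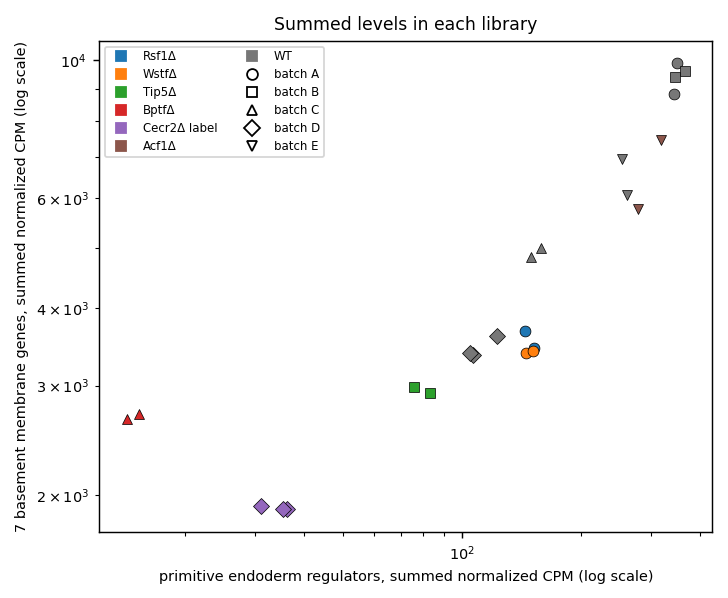
Summed normalized CPM of the 7 members (vertical, log axis) against that of 9 primitive endoderm regulators (horizontal, log axis), 1 point per library, with colour for the line and shape for the batch. WT libraries run from 105 and 3360 CPM in batch D to 365 and 9898 CPM in batches B and A, and BptfΔ lies farthest to the left, at 14.3 to 15.3 CPM of regulators.

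Parietal endoderm, the cell type that secretes most of this matrix in the embryo, is also marked by Plat, Thbd and Pth1r and by simple keratins. Of 8 such markers, all tested, 6 fell in Rsf1Δ, 7 in WstfΔ, 4 in Tip5Δ, 5 in BptfΔ, 5 in the Cecr2Δ-labelled libraries and 1 in Acf1Δ, with list medians from -2.73 in WstfΔ to -0.33 in Acf1Δ. Plat (tissue plasminogen activator) fell in 5 lines, between -2.04 in Rsf1Δ and -3.32 in WstfΔ, as did Thbd (thrombomodulin), between -2.05 and -4.47, and Pth1r (a parathyroid hormone receptor), between -1.55 and -4.07. Krt18 fell in 4 lines and stood at -0.70 in Tip5Δ, where its partner Krt8 stood at -0.83. Snai1 rose in BptfΔ (1.16). Of 8 visceral endoderm markers 4 were tested. Of these 3 fell in Rsf1Δ, 0 in WstfΔ, 2 in Tip5Δ, 3 in BptfΔ, 1 in the Cecr2Δ-labelled libraries and 0 in Acf1Δ. List medians ran from -4.30 in BptfΔ to 0.16 in Acf1Δ, with 0.01 in WstfΔ. The secreted products Ttr, Afp, Apoa1 and Cer1 had at most 9 counts in any library. The endocytic receptors Cubn, Lrp2 and Amn fell in Rsf1Δ and BptfΔ, Cubn and Amn in Tip5Δ, and Amn in the Cecr2Δ-labelled libraries, with Cubn at 1.44 ± 0.161 CPM in BptfΔ against 102 ± 16.6 in WT.

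Fibroblasts also make collagen IV, laminin and SPARC, so their markers were read beside the members. Postn, Lum and Dcn had at most 11 counts in any library, and the 10 fibroblast markers summed to between 17.4 and 97.5 CPM. Of the 7 tested, 6 fell in Rsf1Δ, 4 in WstfΔ, 4 in Tip5Δ, 4 in BptfΔ, 1 in the Cecr2Δ-labelled libraries and 4 in Acf1Δ, and Thy1 rose in WstfΔ (1.03). In Acf1Δ Col1a1 fell from 10.7 ± 0.899 to 1.01 ± 0.0624 CPM (SD, n = 2 libraries each; log2 fold change -3.39, SE 0.23, adjusted p = 1.11e-11, edgeR's quasi-likelihood test), and Acta2, Col1a2 and Col3a1 fell as well. The list medians of the fibroblast markers ran from -2.49 in Acf1Δ to -0.37 in the Cecr2Δ-labelled libraries. The part of fibroblasts in the members' levels was not tested in any line. Of 5 tested trophoblast markers, 2 fell in each of Rsf1Δ, WstfΔ, BptfΔ, the Cecr2Δ-labelled libraries and Acf1Δ and 0 in Tip5Δ, with summed levels of at most 67.3 CPM, and Eomes rose in WstfΔ (1.05). Tfap2c, the most abundant of them, fell in BptfΔ (-1.29) and Acf1Δ (-1.74), while Gata3 and Hand1 fell in Rsf1Δ, WstfΔ and the Cecr2Δ-labelled libraries, Gata3 also in Acf1Δ and Cdx2 in BptfΔ, all below 3 CPM. No mESC marker fell in any line, Klf4 rose in WstfΔ (1.30) and BptfΔ (1.14), and Esrrb rose in BptfΔ (1.19).

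The nearest tested gene on each side of each member was read for changes shared with its neighbour. Of 12 such genes, 1 fell in each of the 6 lines, and 1 rose in each of WstfΔ and the Cecr2Δ-labelled libraries. Of all genes tested, 5.26% fell in Rsf1Δ, 6.57% in WstfΔ, 2.63% in Tip5Δ, 8.59% in BptfΔ, 2.33% in the Cecr2Δ-labelled libraries and 3.32% in Acf1Δ. In WstfΔ 3.87% of all genes rose, and in the Cecr2Δ-labelled libraries 0.784%. Counts of 1 among 12 genes are not read as a result about these loci. The gene that fell in 5 lines was Ptprm, a receptor tyrosine phosphatase 343 kb from Lama1, at 5.69 ± 0.132 CPM in the WT of batch A and 1.32 ± 0.0202 in Rsf1Δ (SD, n = 2 libraries each; log2 fold change -2.11, SE 0.21, adjusted p = 1.06e-08, edgeR's quasi-likelihood test), and at -2.24, -1.95, -2.50 and -2.83 in WstfΔ, Tip5Δ, BptfΔ and the Cecr2Δ-labelled libraries. Fat2, 56.7 kb from Sparc, rose in WstfΔ (1.71) and the Cecr2Δ-labelled libraries (1.48) and fell in Acf1Δ (-2.97), at group means of at most 5.16 CPM. Dld, 1.92 kb from Lamb1, and Rab20, 4.10 kb from Col4a2, passed the thresholds in no line.

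The pattern of the 7 members over the libraries was set against that of each of 9835 other genes with a mean log2 CPM of at least 3, after the WT mean of the batch was taken from each value. The most similar were Plod2, a lysyl hydroxylase of collagen (r = 0.973), Adamts9, a secreted metalloprotease (0.969), Pdgfra, a receptor tyrosine kinase of primitive endoderm (0.964), P4ha2 (0.961) and Nrg1, a ligand of the EGF family (0.956), over 24 libraries that share their WT baselines. In all, 25 genes had r above 0.9. Plod2 changed by -1.40 in Rsf1Δ, -1.48 in WstfΔ, -1.69 in Tip5Δ, -1.65 in BptfΔ, -1.13 in the Cecr2Δ-labelled libraries and -0.25 in Acf1Δ, and Adamts9 by -2.13, -2.55, -2.51, -2.68, -1.57 and -0.05. Set against the mean of the other 6 members in the same way, Col4a1 (r = 0.978), Lama1 (0.976) and Col4a2 (0.971) were closest to the rest, followed by Lamb1 (0.915), Sparc (0.873) and Lamc1 (0.723), and Nid1 went the other way (-0.426). These values describe 24 libraries of 7 genotypes and are given with no test.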

How the data were processed

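RNA-seq counts were analysed for 24 libraries of WT and deletion mESCs. The authors aligned reads to mm10 with QuasR (HISAT2, spliced mode; the submitters' processing notes also name bcl2fastq 2.17), used UCSC knownGene to count them, and deposited a table of raw counts with the width of each gene. The labels name a stranded mRNA kit and poly(A) RNA, and the study's methods name TruSeq RNA v2; how overlaps, multiple matches and strand were handled in counting is not given in the sources used here. Entrez IDs were joined to RefSeq symbols of GRCm38.p6, which matched 24570 of 24594 IDs. The study describes its replicates as biological and independent; separate cultures are not named in the sources used here, so p-values measure only the spread between these libraries, which may be technical in part.

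In R 4.3.3, edgeR 4.0.16 kept 15682 genes (filterByExpr by genotype), scaled libraries with TMM factors and fitted the quasi-likelihood model (legacy form) with batch and genotype over all 24 libraries, which share 1 estimate of the spread. A gene rose or fell where the log2 fold change was beyond 1 in size and the Benjamini-Hochberg adjusted p over all genes was under 0.01. The SE of a log2 fold change is its size over the root of the F statistic. Library totals of 13.4 to 36.7 M counts put 3 counts at 0.0837 to 0.22 CPM; members had at least 682 counts in every library. The members and gene lists were chosen with earlier results of these data known. An adjusted p printed for a listed gene is therefore a description and no independent support for its list. Named from each list were at most 4 genes past the thresholds in any line, by size of change; neighbours were the nearest tested genes; the 5 most similar genes were named by Pearson correlation. Lama5, Krt8, Snai1, Thy1 and Eomes, where outside this rule, were named after their values were seen. The result of 1 listed gene is not reported here. Promoters are those of RefSeq, with transcripts of GENCODE M21. Alternatives were DESeq2 1.42.0, other size factors, filters, WT sets and models, and leaving out each library.

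Same-numbered libraries of a line and its WT did not deviate together (correlations of -0.0672 to 0.0453 over 13 pairs, where both pairs of a line with 2 libraries mirror each other and give 1 value), so the numbers were not taken as pairs.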

Additional observations from a re-analysis of the deposited data

Results flagged for a closer look

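Lamc1 and Nid1 were on both sides of WT in different lines, with every library of a line on 1 side of every WT library of its batch. For Lamc1, BptfΔ was above its WT (log2 fold change 0.08, SE 0.099) and 4 lines were below theirs, with Tip5Δ lowest (log2 fold change -1.14, SE 0.1), a difference of 1.22 on the log2 scale. For Nid1, 3 lines were above WT, with BptfΔ highest (log2 fold change 0.69, SE 0.093), and 2 were below, with Rsf1Δ lowest (log2 fold change -0.38, SE 0.091), a difference of 1.07 on the log2 scale. The difference between lines was not tested, and the lines belong to different batches.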

How the results depend on the processing

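No member past the thresholds changed direction under any alternative run. Of those not past them, Lamc1 in BptfΔ stood at -0.31 and Nid1 in Tip5Δ at 0.18 in the model without batch, and members in Acf1Δ, whose changes were small, changed sign under some alternatives. The count of members past the thresholds stayed within 1.5 times the count reported, in all 6 lines, with the newer quasi-likelihood fit, DESeq2, library size only, median-of-ratios factors, either filter on low counts and only the WT of the batch, and, chosen after seeing the data, without batch C in the other 5 lines. The adjusted p alone gave 7, 6, 6, 6, 7 and 0 members. In a model without batch, 0 members passed in Rsf1Δ, WstfΔ and Tip5Δ, 1, 8, 3 and 2 other listed genes in Rsf1Δ, WstfΔ, Tip5Δ and Acf1Δ (41, 34, 27 and 11 with batch), 0 neighbours in Rsf1Δ, WstfΔ and Tip5Δ and 1 in the Cecr2Δ-labelled libraries; this model sets each line against all 11 WT libraries. With at least 10 counts required in every library, which tests fewer genes, 24 listed genes passed in Rsf1Δ, 16 in Tip5Δ, 23 in BptfΔ, 11 in the Cecr2Δ-labelled libraries and 4 in Acf1Δ, and 0 neighbours in Rsf1Δ, WstfΔ, Tip5Δ, Acf1Δ and the Cecr2Δ-labelled libraries. Leaving out 1 library at a time gave 5 to 6 members in Rsf1Δ and WstfΔ and the reported count in the other lines; it gave 1 to 2 neighbours in Rsf1Δ, with 2 without the second WT library of batch A. With the replicate number as a block, all 42 fold changes of members stayed within the spread between replicates and the counts of members were 5, 5, 6, 4, 5 and 0. The cause of these shifts was not tested beyond what each setting's construction shows. Depth does not limit the members; it limits the listed genes below 1 CPM, where SEs are large. Each line is 1 clone, BptfΔ is measured in batch C only, and in the Cecr2Δ-labelled libraries and Tip5Δ the mRNA of the targeted gene, which a deletion can leave in place, does not check the label.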
